A study of Mus musculus with 10 samples.

Results

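Platelet-derived growth factors were examined in whole mouse hearts as a family of 6 genes out of the 56748 genes in the deposited count tables, namely the ligand genes Pdgfa, Pdgfb, Pdgfc and Pdgfd and the receptor genes Pdgfra and Pdgfrb. The genes were taken by name, with Ensembl identifiers matched to symbols by GENCODE M39. Both atria and ventricles were included in every heart. The 5 training hearts came from male wild-type C57BL/6 mice that ran on a treadmill for 8 weeks at 15 m/min, for 120 min per day on 5 days per week, after they had been accustomed to it. The 5 sedentary hearts came from wild-type mice of the same strain and age that were not trained. The mice were 8 weeks old when they were bought, and 1 library was made from each heart. The interval between the last run and the removal of the heart is not given in the sources used here, so a lasting effect of training and an effect of the last run cannot be told apart.

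PDGF ligands are secreted dimers that act through 2 receptor tyrosine kinases. PDGF-AA and PDGF-CC bind the alpha receptor, PDGF-DD binds mainly the beta receptor, and PDGF-BB binds both. In the heart, the alpha receptor is a marker of fibroblasts and the beta receptor of pericytes and vascular smooth muscle, while endothelial cells release PDGF-BB and thereby recruit pericytes to small vessels. Pdgfra, Pdgfa and Pdgfc are therefore described as the alpha receptor arm and Pdgfrb, Pdgfb and Pdgfd as the beta receptor arm, although PDGF-BB also binds the alpha receptor. In bulk tissue, fewer cells of a type and less RNA per cell cannot be told apart.

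All 6 genes are protein-coding, and positions are given on GRCm39, that of Pdgfrb beside its values. Pdgfra (ENSMUSG00000029231) lies on the plus strand of chromosome 5 from 75311994 to 75358876, and Pdgfa (ENSMUSG00000025856) on the minus strand of the same chromosome from 138961758 to 138983435. Pdgfc (ENSMUSG00000028019) lies on the plus strand of chromosome 3 from 80943668 to 81121473. Of the beta arm, Pdgfb (ENSMUSG00000000489) is on the minus strand of chromosome 15 from 79880009 to 79899181 and Pdgfd (ENSMUSG00000032006) on the plus strand of chromosome 9 from 6168240 to 6379265. In GENCODE M39, genes on the other strand overlap every member but Pdgfrb, namely 6330403L08Rik at Pdgfa, Gm16000 at Pdgfc, Gm41361 at Pdgfb, Gm67855 and Ddi1 at Pdgfd, and Gm42802 and Gm42803 at Pdgfra, and strand-specific counts keep these apart. On the same strand, Gm64611 overlaps Pdgfc, Gm67859 overlaps Pdgfd, and the microRNA genes Mir7213 and Mir7025 overlap Pdgfb and Pdgfra, which strand does not separate.

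RefSeq sequences of 250 bases before and 50 bases from the start site, on GRCm38.p6, were used for 4 of the members. They were searched on both strands, beside 32851 mouse promoters of the same length. Pdgfb had no entry, and Pdgfrb was not looked up. The letters TATAAA, known as the TATA box, were present in 13.6% of all these promoters. The CCAAT box, spelled by its name, was present in 37.4%. The letters GGGCGG, known as the GC box, were present in 35.7%. The letters GAGACC, a shear stress element known from the human PDGFB gene, were present in 16.4%. Pdgfra is shown because it was the receptor called below, and Pdgfa and Pdgfd as a ligand of each arm, with each match in capitals and no overlap between matches.
Pdgfra (chr5:75152001-75152300, plus strand): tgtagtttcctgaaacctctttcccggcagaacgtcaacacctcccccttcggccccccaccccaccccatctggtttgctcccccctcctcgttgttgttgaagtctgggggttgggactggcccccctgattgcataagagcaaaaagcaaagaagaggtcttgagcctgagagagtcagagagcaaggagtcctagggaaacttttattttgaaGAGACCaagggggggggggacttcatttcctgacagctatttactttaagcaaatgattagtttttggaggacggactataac
Pdgfa (chr5:138994895-138995194, minus strand): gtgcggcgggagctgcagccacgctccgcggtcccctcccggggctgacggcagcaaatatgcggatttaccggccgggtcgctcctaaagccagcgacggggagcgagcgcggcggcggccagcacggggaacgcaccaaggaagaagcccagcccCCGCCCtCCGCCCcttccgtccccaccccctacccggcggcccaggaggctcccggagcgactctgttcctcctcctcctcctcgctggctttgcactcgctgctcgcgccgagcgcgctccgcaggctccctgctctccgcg
Pdgfd (chr9:6168236-6168535, plus strand): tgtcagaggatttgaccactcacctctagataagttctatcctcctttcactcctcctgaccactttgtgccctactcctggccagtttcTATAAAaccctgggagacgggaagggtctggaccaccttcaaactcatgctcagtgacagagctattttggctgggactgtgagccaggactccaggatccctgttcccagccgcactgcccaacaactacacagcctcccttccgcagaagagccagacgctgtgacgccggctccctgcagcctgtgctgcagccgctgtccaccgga
The Pdgfra window held a single match, GAGACC, which began 33 bases before the start site. The Pdgfa window had 2 GC boxes, read on the other strand, within a sequence of 73.3% G and C, against 51.0% in Pdgfra. RefSeq has another start site of Pdgfa, not shown, whose window held 1 GC box. Pdgfd had a TATAAA that began 160 bases before the start site. None of these motifs was found in the Pdgfc window. A match is a description of the sequence and was not tied to any of the expression values.

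Gene counts summed to between 29461697 and 39431030 reads per library, with a median of 34231778 in the training and 37754308 in the sedentary hearts. Levels are given below as CPM, that is, as reads of the gene per 1000000 reads of the library after a TMM correction for its composition. A change is given as the log2 fold change, training over sedentary, and a gene was called at a false discovery rate (FDR) below 0.1 over all 15454 genes tested, the threshold of the study. The 6 genes had between 129 and 3439 reads in every heart, so all of them were tested. The labels name each library by its group and a mouse number, so each library is a separate animal.

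All 6 genes were expressed in every heart. Compared per length, by TPM, the share of transcripts that RSEM estimates with gene length taken into account, over all 10 hearts, Pdgfrb stood at 16.3 ± 1.08 TPM (SD, n = 10) and Pdgfb at 15.1 ± 1.3 TPM. The difference between these 2 was within their spread, as Pdgfrb was the higher in 7 of 10 hearts. Pdgfa (10.5 ± 1.31 TPM) and Pdgfra (9.54 ± 1.55 TPM) came next, with overlapping ranges of 8.81 to 12.2 TPM and 7.75 to 12.7 TPM. Pdgfd followed at 6.50 ± 0.530 TPM and lay below Pdgfra in 10 of 10 hearts. Pdgfc was the lowest at 1.92 ± 0.525 TPM, between 1.1 and 2.48 TPM.

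**Figure D1:**
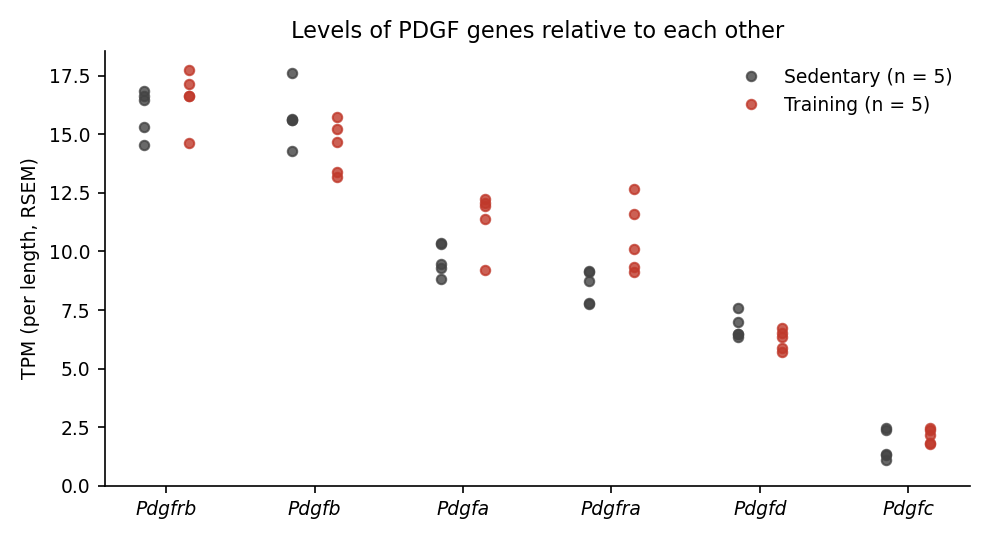
Level of each PDGF gene in TPM (y axis) in the 5 sedentary (grey) and 5 training (red) hearts, with genes ordered by their mean over all hearts. Each point is a heart, and the beta receptor and Pdgfb lie highest while Pdgfc stays at or below 2.48 TPM.

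After 8 weeks of training, Pdgfra was higher and Pdgfb was lower, and both changes were small. The other 4 genes did not pass the FDR. The 2 called genes stand against a background of 7.01% of all tested genes at the same FDR, with 2.75% of the tested genes called higher and 4.26% called lower. At an unadjusted p below 0.05, 3 of the 6 members passed (Pdgfa, Pdgfb and Pdgfra), against 20% of all tested genes. All 3 genes of the alpha receptor arm had positive log2 fold changes and all 3 of the beta receptor arm had negative ones, though the sign of Pdgfrb depends on the scaling and the signs of Pdgfc and Pdgfrb on a covariate for atrial genes, as given below. Over all tested genes the median log2 fold change was 0.00026 and the median size of a change 0.092.

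**Figure D2:**
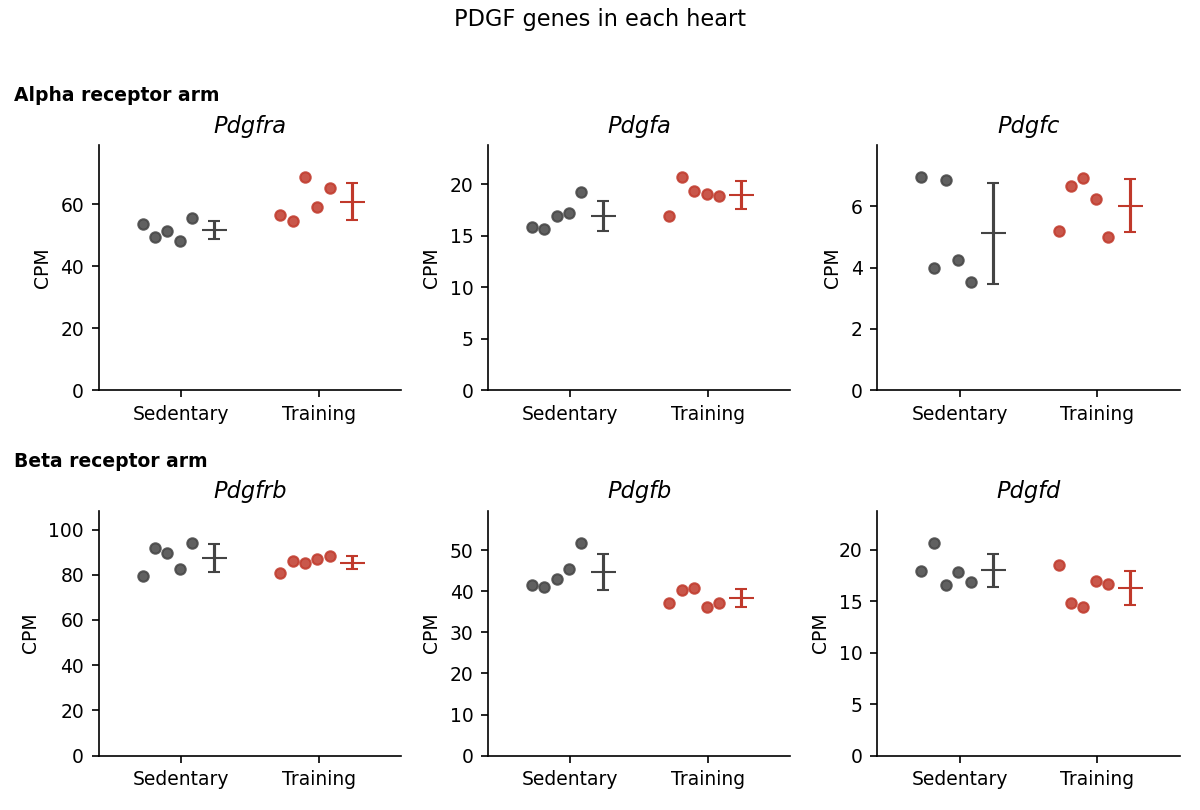
CPM (y axis, from 0) of each PDGF gene in the 5 sedentary and 5 training hearts, with the mean ± SD beside the points. The alpha receptor arm is in the upper row and the beta receptor arm in the lower row, and of the 6 genes only Pdgfb had no overlap between the groups.

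Pdgfra encodes the alpha receptor. It was at 56.6, 54.5, 68.7, 59.0 and 65.3 CPM in training hearts 1 to 5 and at 53.7, 49.5, 51.3, 48.3 and 55.5 CPM in sedentary hearts 1 to 5. The groups overlapped only in that training heart 2 lay below sedentary heart 5. The means were 60.8 ± 5.98 CPM (SD, n = 5) and 51.7 ± 2.98 CPM, and the log2 fold change was 0.24 (SE, the standard error, 0.064, 95% interval 0.097 to 0.37) and an adjusted p of 0.0627 in edgeR's quasi-likelihood test. DESeq2 gave an adjusted p of 0.0159. The size of the change varied little when a heart was left out, between 0.19 and 0.27, but the call was lost in 6 of the 10 fits. The adjusted p (edgeR) was 0.141 without training heart 3, 0.108 without training heart 4 and 0.132 without training heart 5. It was 0.132 without sedentary heart 2, 0.122 without sedentary heart 3 and 0.134 without sedentary heart 4.

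Of 10 fibroblast markers, a list without Pdgfra, Gsn and Lum were called higher and none lower, and 8 of 10 were above 0, with a median log2 fold change of 0.15. Lum, a collagen-binding proteoglycan, was at 83.9 ± 5.86 against 69.6 ± 9.49 CPM, and Gsn, an actin-severing protein that many other cells also make, at 1965 ± 237 against 1574 ± 64.3 CPM. The summed level of the list was between 3200.2 and 4177 CPM in the training hearts and between 2894 and 3373 CPM in the sedentary hearts, and no marker was at 0. Per 1000 CPM of these markers, Pdgfra had 16.9 ± 1.06 CPM after training and 16.8 ± 1.08 CPM without it, and the difference between the groups was smaller than the spread within them. Lum was called in 2 of the 10 fits that each dropped a heart and Gsn in all 10. Gsn made up the larger part of the sum. Without it, a choice made after its values were seen, the same measure was 37.3 ± 2.83 against 34.4 ± 3.12 CPM and the groups overlapped. The log2 difference was then 0.12 with an SD of 0.12 within groups, against 0.015 and 0.090 with Gsn.

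Pdgfa and Pdgfc, the ligands of the alpha receptor, were not called. Pdgfa was at 16.9, 20.7, 19.3, 19.0 and 18.8 CPM in training hearts 1 to 5 and at 15.8, 15.6, 16.9, 17.2 and 19.2 CPM in the sedentary hearts. Apart from sedentary heart 5 and training heart 1, the training hearts were the higher ones. Its log2 fold change was 0.16 (SE 0.068, 95% interval 0.016 to 0.31, adjusted p = 0.202 in edgeR). With library totals alone as the scaling it was 0.22 and passed the FDR (edgeR adjusted p = 0.0937).

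Pdgfc, a ligand that is secreted in a latent form and activated by proteases, varied most between hearts. In the training hearts it was at 5.21, 6.67, 6.93, 6.26 and 5.01 CPM, and in the sedentary hearts at 6.96, 4.00, 6.87, 4.24 and 3.53 CPM. Sedentary hearts 1 and 3 were as high as the highest training hearts, while sedentary hearts 2, 4 and 5 lay below all of them. The log2 fold change was 0.23 with an SE of 0.18 and a 95% interval of −0.16 to 0.62 (edgeR adjusted p = 0.532). The within-group SD of Pdgfc was 0.35 on the log2 scale, above that of 88.6% of the tested genes, whereas the other members lay between 0.082 and 0.14, against a median of 0.13 for all tested genes.

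Macrophage and fibroblast markers followed the same split among the sedentary hearts. The summed level of 6 macrophage markers was 263 CPM in both sedentary hearts 1 and 3 and between 218 and 224 CPM in the other three. Fibroblast markers summed to 3373 and 3242 CPM in sedentary hearts 1 and 3 and to at most 3005 CPM in the rest. The training hearts were less alike. Training heart 3 was the highest in Pdgfc and in both sums (255 and 4177 CPM). Training heart 2, at 6.67 CPM of Pdgfc, had the lowest fibroblast sum of its group (3200 CPM). Training heart 5, the lowest in Pdgfc, was above training hearts 1, 2 and 4 in the macrophage sum (231 CPM). The 5 atrial markers summed to 6620 CPM in sedentary heart 1 but to 4462 CPM in sedentary heart 3, against 4654 CPM in sedentary heart 4 and 2678 and 2681 CPM in sedentary hearts 2 and 5. The part of these cells in the level of Pdgfc was not tested.

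Pdgfb, which endothelial cells make to hold pericytes, was lower after training. It was at 37.1, 40.4, 40.8, 36.2 and 37.2 CPM in training hearts 1 to 5 and at 41.6, 41.1, 43.1, 45.4 and 51.9 CPM in sedentary hearts 1 to 5. Every training heart was below every sedentary heart, as in 5.06% of all tested genes that had no overlap in either direction, although the highest training heart and the lowest sedentary heart differed by little. The means were 38.3 ± 2.11 CPM (SD, n = 5) and 44.6 ± 4.38 CPM, a change of −0.22 on the log2 scale (SE 0.064, 95% interval −0.36 to −0.082) with an adjusted p of 0.0771 in edgeR's quasi-likelihood test and 0.0347 in DESeq2. With library totals alone the change was −0.16 and was not called (edgeR adjusted p = 0.144). When a heart was left out the change lay between −0.25 and −0.16, and the call was lost in 7 of the 10 fits. The adjusted p (edgeR) was then 0.124, 0.1004, 0.173 and 0.144 without training heart 1, 3, 4 or 5, and 0.132, 0.142 and 0.125 without sedentary heart 3, 4 or 5.

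Of the endothelial markers, 1 was called lower. Tie1, an endothelial receptor tyrosine kinase, fell from 106 ± 6.38 to 95.3 ± 3.58 CPM (log2 fold change −0.16, edgeR adjusted p = 0.0765) and was the only one of 7 markers called, though in 3 of 10 fits when a heart was dropped. Of the 7, 5 were below 0 and the median was −0.088. Their summed level was between 811 and 871 CPM in the training hearts and between 890.05 and 933 CPM in the sedentary hearts, with none of the markers at 0. Per 1000 CPM of these markers, Pdgfb had 44.8 ± 2.20 CPM after training and 49.0 ± 5.26 CPM without it, and the groups overlapped (41.7 to 46.9 against 44.1 to 57.3 CPM).

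Pdgfd, the second ligand of the beta receptor, was at 18.5, 14.8, 14.4, 16.9 and 16.7 CPM in the training hearts and at 18.0, 20.7, 16.6, 17.8 and 16.9 CPM in the sedentary hearts. The groups overlapped, as training hearts 1, 4 and 5 all lay above sedentary heart 3, the lowest of its group. The log2 fold change was −0.15 (SE 0.078, 95% interval −0.31 to 0.020, adjusted p = 0.315 in edgeR).

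Pdgfrb (ENSMUSG00000024620), the beta receptor, lies on the plus strand of chromosome 18 from 61178212 to 61218133. It was at 80.8, 85.9, 85.4, 86.8 and 88.1 CPM in training hearts 1 to 5 and at 79.4, 91.6, 89.6, 82.4 and 94.2 CPM in sedentary hearts 1 to 5. The training hearts lay within the range of the sedentary hearts. Its log2 fold change of −0.034 had an SE of 0.050 and a 95% interval of −0.14 to 0.073 (adjusted p = 0.760 in edgeR), so a change of the size seen in Pdgfra lay outside the interval. With library totals alone the value was 0.021. Among 8 pericyte markers, Rgs5 alone was called, at 486 ± 30.9 against 552 ± 33.5 CPM (log2 fold change −0.18, edgeR adjusted p = 0.0814), with 4 above and 4 below 0 and a median of −0.029. Of 4 smooth muscle markers, Tagln (log2 fold change 0.54) and Cnn1 (0.75) were called higher, with edgeR adjusted p of 0.0618 and 0.0829. Acta2 was below 0 (−0.069) and the other 3 were above, with a median of 0.44. Their sums overlapped, at 221 to 346 CPM in the training and 216 to 303 CPM in the sedentary hearts. When each heart was dropped in turn, Rgs5 was called in 2, Tagln in 5 and Cnn1 in 3 of 10 fits. The summed pericyte markers were between 995 and 1168 CPM in the training hearts and between 1044 and 1211 CPM in the sedentary hearts.

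**Figure D3:**
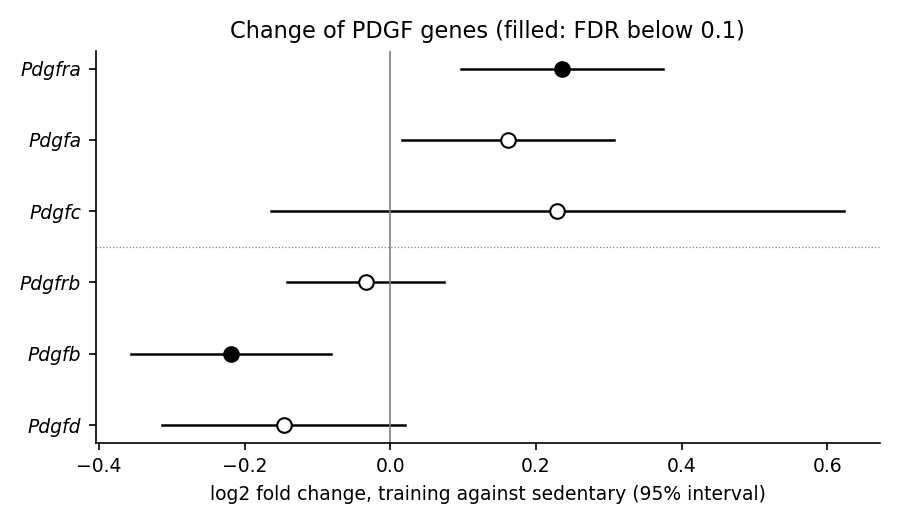
Log2 fold change, training over sedentary, on the x axis for each PDGF gene, with its 95% interval from edgeR over 5 and 5 hearts. Filled points passed an FDR below 0.1, with Pdgfra at 0.24 and Pdgfb at −0.22, and the dotted line separates the alpha receptor arm above from the beta receptor arm below.

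The arms were then set against each other within each heart, by the log2 ratio of a gene of the alpha receptor arm to its counterpart in the beta receptor arm. Such a ratio does not depend on how the library was scaled. Its dependence on tissue composition was not tested, as no ratio was run with the atrial covariate given below. The 3 ratios were tested by exact permutation of the group labels, two-sided, whose smallest p is 0.00794. The ratio of Pdgfra to Pdgfrb was −0.49 ± 0.13 (SD, n = 5) in the training and −0.76 ± 0.12 in the sedentary hearts, a difference of 0.26 (exact permutation test, p = 0.0159, adjusted p = 0.0238). Sedentary heart 1, at −0.56, reached into the range of the training hearts, which was −0.66 to −0.31, and the other sedentary hearts were at −0.76 or lower.

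The ratio of Pdgfa to Pdgfb separated the groups fully, as Pdgfb alone already did. How many other pairs of genes have such a ratio was not counted, and the ratios were chosen with earlier results of these data known. The ratio of Pdgfa to Pdgfb was −1.14, −0.97, −1.08, −0.93 and −0.98 in training hearts 1 to 5 and between −1.43 and −1.35 in the sedentary hearts. The difference of 0.38 had the smallest p that the test can give (exact permutation test, p = 0.00794, adjusted p = 0.0238). It was between 0.35 and 0.41 in the 10 comparisons that left out a heart. The sedentary hearts varied little in this ratio, with an SD of 0.028 against 0.088 in the training hearts. The ratio of Pdgfc to Pdgfd was −1.44 ± 0.34 in the training and −1.87 ± 0.51 in the sedentary hearts, and the difference of 0.43 did not pass (exact permutation test, p = 0.151, adjusted p = 0.151). Without sedentary heart 1 or 3 it was 0.55 or 0.58, with an adjusted p of 0.0952 or 0.0794 in the same exact test. In the other 8 of the 10 comparisons that left out a heart it did not pass. Over all 10 it was at least 0.30, with an adjusted p of up to 0.310 in that test.

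**Figure D4:**
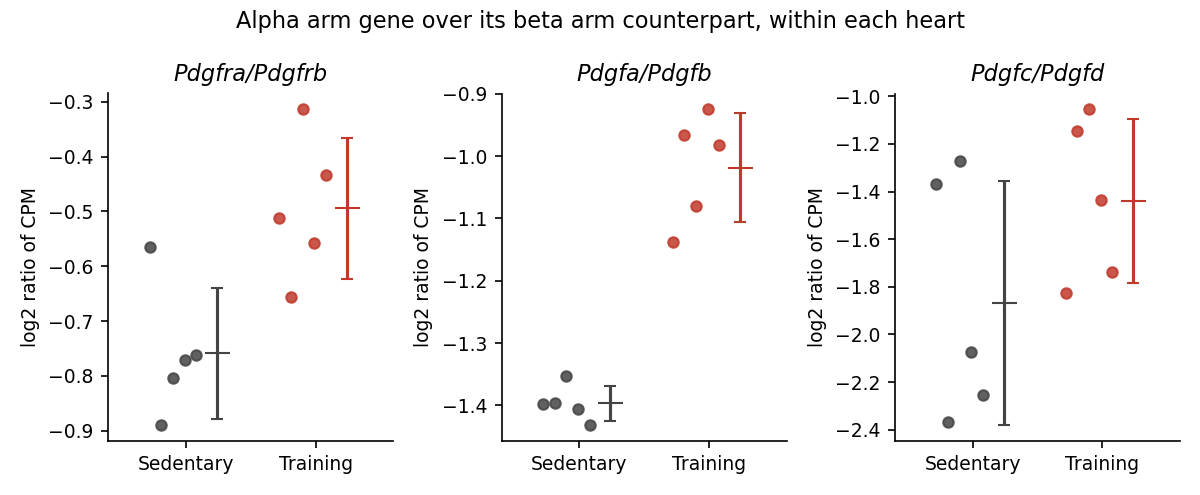
Log2 ratio of CPM (y axis) of an alpha receptor arm gene to its beta receptor arm counterpart in each of the 5 sedentary and 5 training hearts, with the mean ± SD beside the points. The y axes do not start at 0, and the groups do not overlap in the ratio of Pdgfa to Pdgfb.

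Per length, the share of the alpha receptor in the summed TPM of both receptors was 38.8% ± 2.45 (SD, n = 5) in the training and 34.8% ± 1.89 in the sedentary hearts. Pdgfa and Pdgfc together made up 39.4% ± 2.32 of the summed TPM of all 4 ligands after training, against 33.5% ± 2.03. Pdgfb remained the most abundant ligand in both groups, with a share of 42.2% ± 1.56 after training and 46.5% ± 2.25 without it. These shares restate the ratios above on the TPM scale and were not tested.

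None of the 5 pairs of members tested was found to vary together from heart to heart beyond the group difference. Other pairs were not tested, among them Pdgfa with Pdgfb, whose log2 ratio had an SD of only 0.028 among the sedentary hearts. For 5 pairs, of the receptors and of each ligand with its receptor, log2 CPM were compared over the 10 hearts after the group means had been subtracted. Pearson's r was between −0.13 (Pdgfd with Pdgfrb) and 0.35 (Pdgfb with Pdgfrb) and Spearman's rho between 0.042 and 0.26. The smallest p was 0.441 for r (Pdgfra with Pdgfrb) and 0.380 for rho, from 100000 permutations within groups, and the adjusted p was 0.867 and 0.900 for all 5 pairs. Without the 2 hearts farthest from the median, r was between −0.28 and 0.37.

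The genes whose deviations from the group means were most like those of a member were ranked among 10240 genes with at least 5 CPM, by Pearson's r over the 10 hearts. This is a description over hearts that share library depth and tissue composition, and with so many genes and so few hearts a high r is common. Entpd2, Zbtb4 and C1qtnf1 were most like Pdgfra (r = 0.96, 0.92 and 0.91), and Atg9a, Jpt2 and Ccn1 most like Pdgfrb (r = 0.91, 0.90 and 0.90). Sdc3, Mtss2 and Wfs1 were nearest to Pdgfa (0.94, 0.94 and 0.93) and Lipa and Actg1 to Pdgfb (0.97 and 0.91). For Pdgfc they were Skap2, Hacd4 and Ptk7 (0.99, 0.96 and 0.95), and for Pdgfd Gm5532, Pex11a and Doc2g (0.97, 0.96 and 0.96).

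Around the ligands and receptors, 48 further genes of the pathway were followed, of which 46 had enough reads to be tested. Of these, 1 was called higher and 3 lower, against the 7.01% of all tested genes that were called. The median of the 46 genes was −0.00053, with 23 above and 23 below 0. Fosl1 and Flt3, with at most 18 and 15 reads in a heart, were not tested.

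**Figure D5:**
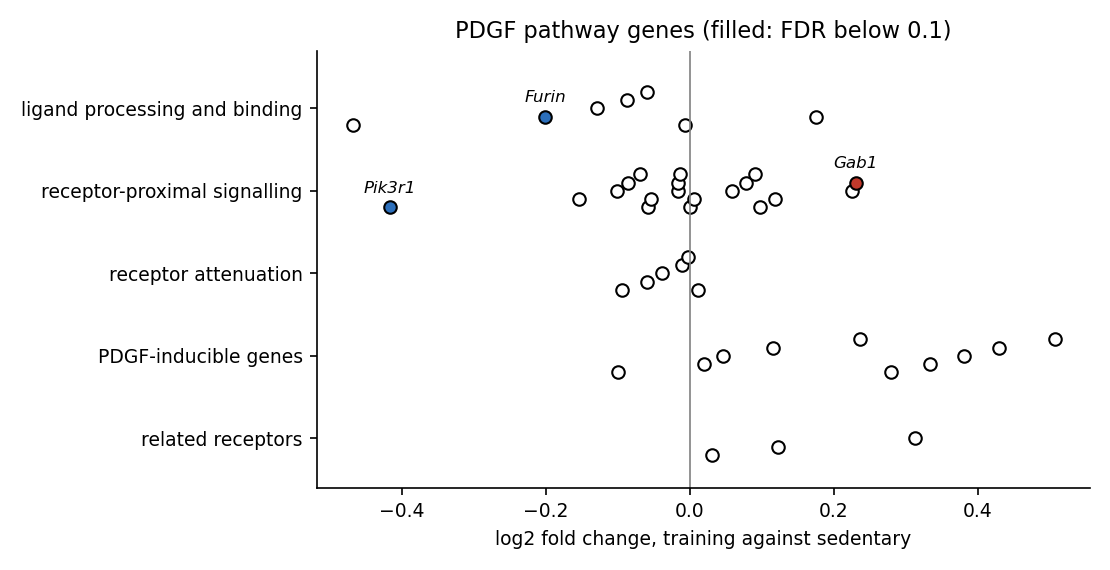
Log2 fold change, training over sedentary, on the x axis for the pathway genes reported here in 5 groups (y axis), each point a gene. Filled points passed an FDR below 0.1 in edgeR, namely Gab1 above 0 and Furin and Pik3r1 below 0.

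Among 8 genes that process or bind the ligands, 2 were called lower, of which Furin is reported here. Furin encodes the proprotein convertase that cleaves PDGF-A and PDGF-B precursors, and was at 112 to 132 CPM in the training hearts and 134 to 153 CPM in the sedentary hearts, with no overlap. Its log2 fold change was −0.20 (SE 0.051, adjusted p = 0.0482 in edgeR). It was not called with library totals alone, where it was −0.15 (edgeR adjusted p = 0.177), nor without training heart 4 or sedentary heart 3 (adjusted p = 0.112 and 0.104). The plasminogen activator genes Plat (log2 fold change −0.059) and Plau (0.18), whose products can cleave latent PDGF-C or PDGF-D, were not called. The median of the 8 genes was −0.11, and 7 were below 0.

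Of 19 genes that carry the signal of an activated receptor, 1 was higher and 1 lower. Pik3r1, the regulatory subunit through which PI3-kinase docks on PDGF receptors and on many others, had the largest change of the pathway genes called. It was at 170 to 225 CPM in the training hearts and 251 to 298 CPM in the sedentary hearts, and the difference, −0.42 on the log2 scale (SE 0.075, adjusted p = 0.0153 in edgeR), was called whichever heart was left out. The catalytic subunit gene Pik3ca had 0.078 and was not called. Gab1, a docking protein that links receptors to SHP2 and PI3-kinase, was at 60.7 to 72.6 CPM against 49.7 to 59.6 CPM with no overlap, with a change of 0.23 on the log2 scale (SE 0.057, adjusted p = 0.0448 in edgeR). Without training heart 4 it narrowly missed the FDR (edgeR adjusted p = 0.101). The median of these genes was −0.013, with 9 above and 10 below 0.

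No gene of the other 3 groups was called. Of 6 genes that switch the receptors off, 5 were below 0 with a median of −0.024, and Ptpn2, a tyrosine phosphatase, had the smallest p with a log2 fold change of −0.095 (edgeR adjusted p = 0.434). Of 10 tested genes that PDGF can induce in cultured cells, 9 were above 0 with a median of 0.26. Their summed level overlapped, at 128 to 158 CPM in the training and 113 to 157 CPM in the sedentary hearts. Jun, the most abundant of them, had 0.020, and some were near the floor, such as Fosb and Cxcl1 at 0.94 and 0.84 CPM after training. Whether these genes answered to PDGF was not tested. Egr1, an immediate early transcription factor, was at 16.6 ± 2.74 against 12.8 ± 3.40 CPM, a difference of 0.38 on the log2 scale with an adjusted p of 0.207 in edgeR. Of the related receptors, Pdgfrl, a secreted protein with similarity to the ligand-binding part of PDGF receptors, was at 4.70 ± 0.548 against 3.79 ± 0.300 CPM. Its log2 fold change of 0.31 had an SE of 0.099 and an adjusted p of 0.1004 in edgeR, just past the threshold. Kit (0.12) and Csf1r (0.031) were not called.

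Of 5 atrial markers, 1 was called. Sln, an atrial regulator of the calcium pump, rose by 0.75 on the log2 scale (edgeR adjusted p = 0.0316). The other 4 were above 0, between 0.37 and 0.83, but not called, and the median of the 5 was 0.50. The summed level of the 5 was between 4795 and 7306 CPM in the training and between 2678 and 6620 CPM in the sedentary hearts, with overlap. With the mean log2 level of these 5 genes as a covariate, 126 genes in all were called in place of 1084 and none of the 6 PDGF genes was among them. Pdgfra then had a log2 fold change of 0.21 (edgeR adjusted p = 0.347) and Pdgfb −0.17 (adjusted p = 0.416), while Pdgfc (−0.098) and Pdgfrb (0.063) changed sign. Pathway genes called in that fit were 4 in number, among them Pik3r1, Gab1 and Furin.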

How the data were processed

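Directional poly-A libraries from 10 whole hearts were sequenced in a single pool. The authors used STAR 2.7.10a on GRCm39 and deposited, per gene, its raw counts of uniquely placed reads, of which the reverse-strand column was used here (94.9% to 95.7% of the stranded counts). They also deposited expected counts and TPM from RSEM 1.3.3, whose strand setting is not given in the sources used here. Reads on no gene made up 4.15% to 4.89% and multimapping reads 17.9% to 19.2% of each table, and both were left out. GENCODE M39 matched 56017 of 56748 identifiers.

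All genes entered edgeR 4.0.16 under R 4.3.3 (TMM scaling after filterByExpr, quasi-likelihood F test, Benjamini-Hochberg over all genes tested). For log2 CPM, a prior count of 2 was added, except in the ratios and the correlations between members. Alternatives were DESeq2 1.42.0, other scalings, filters and kinds of count, the mouse number as a block, an atrial covariate, each heart left out and an FDR below 0.05. Within groups, chi-square over its degrees of freedom was at least 5.71 for every pair of hearts, so none were duplicates. The steps were tested on simulated data. The members, lists and tests were chosen with earlier results of these data known. All 6 members were named, with every pathway or marker gene called (except 2 genes that are not reported here), the gene of smallest p in a pathway list without calls, and 3 genes of the most similar pattern per member. Other genes were named after their values were seen.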

Additional observations from a re-analysis of the deposited data

How the results depend on the processing

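Pdgfra and Pdgfb kept their signs in every alternative run, and the calls at an FDR below 0.1 were less stable than the sizes. With library totals alone, which shifted the median of all genes by 0.053 on the log2 scale and turned the calls from 39.2% to 75.2% higher, Pdgfa passed at 0.22, Pdgfb did not at −0.16 and Pdgfrb was 0.021. With the atrial score as a covariate, Pdgfra at 0.21 and Pdgfb at −0.17 were not called, Pdgfc was −0.098 and Pdgfrb 0.063, and 126 genes in all, 0 members and 1 marker gene were called. At an FDR below 0.05 the fit is the same, so Pdgfra (0.24) and Pdgfb (−0.22) were not called, and 505 genes, 0 members and 3 marker genes passed, against 1084, 2 and 8. The causes were not tested, other than the stricter threshold itself.

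Leaving out each heart in turn gave 512 to 1490 genes in all, 0 to 2 members, 1 to 5 pathway genes and 3 to 14 marker genes. Log2 fold changes lay between 0.19 and 0.27 for Pdgfra, −0.25 and −0.16 for Pdgfb, 0.13 and 0.21 for Pdgfa, 0.12 and 0.37 for Pdgfc, −0.20 and −0.093 for Pdgfd and −0.067 and −0.0062 for Pdgfrb. The difference in ratio lay between 0.22 and 0.31 for Pdgfra to Pdgfrb, 0.35 and 0.41 for Pdgfa to Pdgfb and 0.30 and 0.58 for Pdgfc to Pdgfd. The r of a pair, none of which was called, lay between −0.074 and 0.56 for Pdgfa with Pdgfra, −0.14 and 0.57 for Pdgfb with Pdgfrb, −0.13 and 0.31 for Pdgfc with Pdgfra, −0.44 and 0.10 for Pdgfd with Pdgfrb and 0.053 and 0.50 for Pdgfra with Pdgfrb.

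The labels do not say whether mouse numbers pair the hearts. The deviations of same-numbered hearts correlated between −0.097 and 0.16. Differently numbered hearts were not compared, so these values cannot decide whether the numbers pair the hearts. With the number as a replicate block, 1 member and 15 marker genes were called, and Pdgfb, at −0.22, had an adjusted p of 0.101 in edgeR. The sign-flip form of the ratio tests cannot give an exact p below 0.0625. Pdgfc, with as few as 129 reads in a heart, is limited by the spread between hearts, and its interval spans 0.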

Other observations

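Other cell types that could contribute to whole hearts are given by their markers, beside the 7.01% of all tested genes that were called. Over all marker lists, with those above, 8 genes were called, among them 2 of 10 fibroblast and 2 of 4 smooth muscle markers. Of 6 cardiomyocyte markers, Actc1, the cardiac alpha-actin gene, was lower, at 8022 ± 849 against 10470.0 ± 858 CPM (log2 fold change −0.38, edgeR adjusted p = 0.0220), and all 6 were below 0 with a median of −0.10. None of 6 macrophage (median −0.085), 4 epicardial (0.11), 4 Schwann cell (0.18) or 4 adipocyte markers (0.86) was called. The summed adipocyte markers varied widely within both groups, from 16.2 to 142 CPM in the training and from 14.0 to 115 CPM in the sedentary hearts.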
